A study of Mus musculus with 6 samples.

Results

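The Notch pathway genes described here are 10 named genes in N2A cells, a mouse neuroblastoma line, with and without knockdown of the long non-coding RNA Dali. They are the receptors Notch1, Notch2 and Notch3, the ligands Dll3, Jag1 and Jag2, and the transcriptional repressors Hes1, Hes6, Hey1 and Hey2. The set was defined by name, as array probe sets annotated to exactly one of these genes, and each gene had 1 probe set, which gives 10 of the 21789 probe sets with a single gene symbol. Control cells (3 samples) received a non-targeting vector and Dali knockdown cells (3 samples) received a Dali-targeting short hairpin RNA construct, 1.5 ug in each case. Both groups are the same cell line, grown in serum-containing medium, and RNA was taken 2.5 days after transient transfection. No selection of transfected cells was described for these samples, so each value averages over all cells in the well, and fewer expressing cells and less RNA per cell cannot be told apart. One construct was compared with one control vector.

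Notch receptors are cut after they bind a ligand on a neighbouring cell, and the released intracellular part joins the DNA-binding protein RBPJ to switch on genes that include Hes and Hey repressors. Repressors such as Hes1 hold back proneural transcription factors, and through them the pathway is known for keeping neural precursors undifferentiated. Hes6, of the same family, is known to counter Hes1. The question put to the arrays was whether transcripts at any of these steps differ when Dali, a transcript made beside the neural transcription factor gene Pou3f3, is depleted.

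Values are log2 expression measures per probe set on Affymetrix Mouse Gene 1.0 ST arrays, so a difference of 1 is a doubling, and levels of different genes are not compared because their probes differ in affinity. A probe set was called changed when its knockdown and control arrays differed with a limma adjusted p under 0.1 and by at least 1.3-fold, which is 0.38 on the log2 scale. The verbs "rose" and "fell" refer to called probe sets. Array medians lay between 7.86 and 7.93. As a coarse check of the label, 11 of the 12 sympathetic neuroblastoma markers on a list (among them Phox2a, Hand2, Th and Dbh) were measured, and all 11 had a control mean above the median of all array values, against 7 of 24 markers of fibroblasts, glia, endothelium and immune cells. The mean over the neuroblastoma markers was 11.27 to 11.37 in control arrays and 11.12 to 11.25 in knockdown arrays, so the groups did not overlap. Limma called 0 of these markers (1 at an unadjusted p under 0.05). For Phox2a, Hand2, Mycn and Chga all knockdown arrays lay under all control arrays, and the groups overlapped for the rest of this list. Groups did not overlap for 15.4% of all annotated probe sets. The median of the differences per gene was -0.13 for the neuroblastoma markers and -0.07 to 0.06 for the other 4 lists. Within those lists, Pdgfrb, a fibroblast marker, differed by -0.61 with overlapping groups. It was not called by limma (adjusted p = 0.49), but was called with the replicate number as a block (0.013). The part of these shifts in the results below was not tested. Dali itself was not analysed here.

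Of the 10 genes, Hey2 fell and the other 9 were not called. Hey2 was 1.61-fold lower in Dali knockdown cells, and Hes6 was 1.27-fold lower with no overlap between the groups but short of both thresholds. The receptors, the ligands, Hes1 and Hey1 overlapped between the groups. Of the 5 genes that passed the filter on variance, which kept the more variable 50% of the annotated probe sets, 1 was called (Hey2), where 1.14% of all 11705 probe sets tested were called. With the replicate number as a block the same gene was the 1 called, against 7.65% of all. Groups that do not overlap were found for 2 of the 10 genes and for 15.4% of all annotated probe sets, so that the count for the whole set lies near the background. The mean was lower in knockdown cells for 9 of the 10 genes, or 8 when each array was centred on its median, and for 44.8% of all annotated probe sets, or 35.6% when centred. A difference between these shares was not tested, and the intervals of all members but Hey2 and Hes6 include 0. The median difference of the 10 genes was -0.09, beside 0.016 over all annotated probe sets. It was -0.13 for the sympathetic neuroblastoma markers, where the mean was lower for all but Gata2 and Gata3. For the marker lists of other cell types the median ran from -0.07 to 0.06. Leaving out each array in turn gave 7 to 9 of the 10 with a lower mean.

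**Figure D1:**
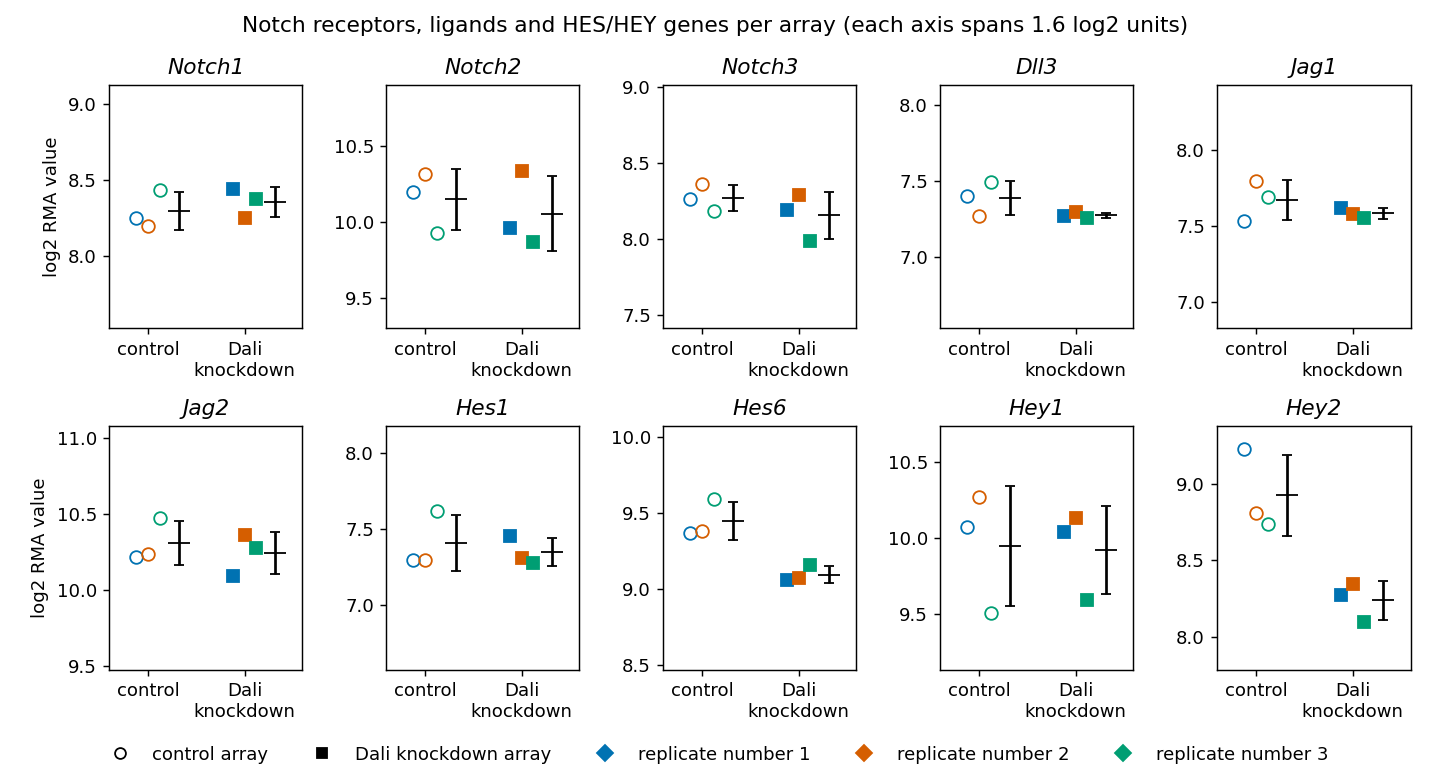
Log2 RMA values of the 10 genes on each array, where open circles stand for control, filled squares for knockdown, and the colour for the replicate number. Black bars give the group mean and SD (n = 3), and each vertical axis spans 1.6 log2 units. For Hey2 (means 8.93 and 8.24) and Hes6 (9.44 and 9.09) all knockdown arrays lie under all control arrays, and the other 8 genes overlap.

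Hey2 encodes a basic helix-loop-helix repressor that acts downstream of Notch and is best known from heart and vessel development. Its log2 value was 9.23, 8.82 and 8.74 in control replicates 1, 2 and 3, and 8.27, 8.35 and 8.10 in knockdown replicates 1, 2 and 3. Every knockdown array lay under every control array, with a gap of 0.39 between the lowest control and the highest knockdown value. The means were 8.93 ± 0.26 and 8.24 ± 0.13 (SD, n = 3), a difference of -0.69 (SE 0.15, 95% interval -1.01 to -0.37, limma adjusted p = 0.065). This is a change of -38.0%, with an interval from -50.4% to -22.5%. Between arrays that share a replicate number Hey2 differed by -0.96, -0.47 and -0.64. The exact permutation test over the 6 arrays gave p = 0.1, the smallest it can give for 3 against 3. The difference is larger than the spread within either group, but the call was lost when either array numbered 1 was left out. Without control replicate 1, the highest array, the difference was -0.54 (limma adjusted p = 0.22). Without knockdown replicate 1 it was -0.71, no smaller than with all arrays (limma unadjusted p = 0.0016, adjusted p = 0.37). That fit called 4 probe sets in all, against 133 in the main fit. Without the variance filter the adjusted p was 0.14 and the call was lost, while with the replicate block it was 0.011 with the filter and 0.016 without it, and the call was kept. Over all 15 alternatives it ran from 0.0051 to 0.40, with the call kept in 10. The direction was kept in 15, which could hardly be otherwise with groups that do not overlap.

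Hes6 encodes a relative of Hes1 that is known to counter it and to favour neuronal differentiation. Its control replicates 1, 2 and 3 had log2 values of 9.37, 9.38 and 9.59, and its knockdown replicates 9.06, 9.07 and 9.16. The groups did not overlap, and the knockdown arrays lay close together. The means were 9.44 ± 0.12 and 9.09 ± 0.05 (SD, n = 3), a difference of -0.35 (SE 0.13, 95% interval -0.63 to -0.07, limma adjusted p = 0.27). Arrays numbered 1, 2 and 3 differed by -0.31, -0.31 and -0.43. With the replicate block the limma adjusted p was 0.031, but the difference stayed under 1.3-fold, so Hes6 was called in 0 of the 15 alternatives (adjusted p 0.031 to 0.67).

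The bases upstream of Hey2 and Hes6, the pair whose groups stood apart, are printed from RefSeq (GRCm38.p6), 250 bases before each annotated transcription start and 5′ to 3′ along the gene. Capitals mark TGGGAA, the core letters bound by RBPJ, or its reverse complement. Hey2 lies on the minus strand (chr10:30842784-30843033). Hes6 also lies on the minus strand and has a pair of starts, the first at chr1:91414039-91414288 and the second at chr1:91413223-91413472.
Hey2: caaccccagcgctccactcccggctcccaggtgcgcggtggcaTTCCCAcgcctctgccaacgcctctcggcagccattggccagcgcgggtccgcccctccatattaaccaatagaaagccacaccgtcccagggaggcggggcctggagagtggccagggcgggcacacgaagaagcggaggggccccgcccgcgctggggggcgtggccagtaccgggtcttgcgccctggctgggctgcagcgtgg
Hes6 start 1: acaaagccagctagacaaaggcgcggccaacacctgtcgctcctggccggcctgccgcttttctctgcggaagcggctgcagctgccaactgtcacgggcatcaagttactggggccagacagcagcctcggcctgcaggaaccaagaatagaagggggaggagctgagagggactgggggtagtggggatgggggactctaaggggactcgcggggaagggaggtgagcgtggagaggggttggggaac
Hes6 start 2: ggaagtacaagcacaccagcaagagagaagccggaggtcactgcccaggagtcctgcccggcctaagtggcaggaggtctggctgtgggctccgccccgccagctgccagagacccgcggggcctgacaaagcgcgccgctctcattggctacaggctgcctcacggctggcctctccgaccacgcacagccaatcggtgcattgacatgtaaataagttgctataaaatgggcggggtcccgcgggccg

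The RBPJ core letters occurred 1 time upstream of Hey2, on the opposite strand, with the leftmost base 207 bases before the start, and 0 times upstream of either Hes6 start. RefSeq promoters were matched for 8 of the 10 genes (not for Hes1 and Hey1), with 9 starts in all. Among the 9 starts searched, the Hey2 start was the 1 start that held TGGGAA on either strand. The letters were found on either strand in the 250 bases upstream of 21.6% of 32851 promoters. The letters CACGTG, an E box that Hey proteins can bind, occurred at 0 of the 9 starts and in 6.02% of all promoters. Such matches describe the letters in these windows and are not measurements of binding.

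Hes1 and Hey1, the other repressors of the set, did not separate the groups. Hes1 is the classical Notch target that represses proneural genes. It measured 7.30, 7.30 and 7.62 in control and 7.45, 7.31 and 7.28 in knockdown replicates 1, 2 and 3. The groups overlapped, with control replicate 3 the highest array, and the difference was -0.06 (95% interval -0.31 to 0.19, limma adjusted p = 0.92 without the variance filter). Leaving out control replicate 3 gave 0.048.

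Hey1, the close paralogue of Hey2, measured 10.07, 10.27 and 9.51 in control replicates and 10.04, 10.13 and 9.59 in knockdown replicates 1, 2 and 3. Both arrays numbered 3 were low, so Hey1 varied by 0.76 across the arrays along the replicate numbers rather than between groups. Its difference was -0.03 (95% interval -0.42 to 0.37, limma adjusted p = 0.98), and with the replicate block the interval narrowed to -0.22 to 0.17. In percent the interval without the block runs from -25.4% to 29.1%. It does not hold the -38.0% of Hey2 itself but overlaps the Hey2 interval of -50.4% to -22.5%. A difference between the paralogues was not tested. The direction of Hey1 has no firm sign, since centring arrays on their medians gave 0.0030.

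**Figure D2:**
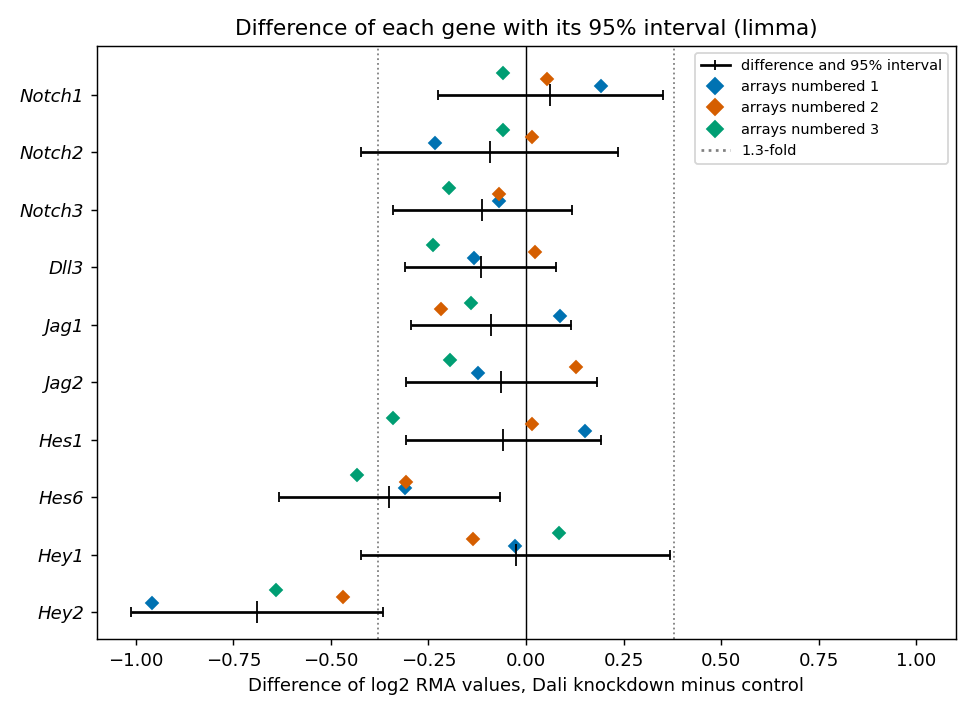
Difference of log2 RMA values, Dali knockdown minus control, for each gene (vertical axis) with its 95% interval from limma as a black bar and the 3 differences within replicate numbers as coloured diamonds. Dotted lines mark 1.3-fold. The intervals of Hey2 (-1.01 to -0.37) and Hes6 (-0.63 to -0.07) lie under 0, and those of the other 8 genes include 0.

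Among the receptors, Notch1 measured 8.25, 8.20 and 8.44 in control and 8.44, 8.25 and 8.38 in knockdown replicates 1, 2 and 3. Notch1 was the 1 gene of the set with a higher mean in knockdown cells, and the groups overlapped, with a difference of 0.06 (95% interval -0.23 to 0.35, limma adjusted p = 0.93). Notch2 measured 10.20, 10.32 and 9.93 in control and 9.96, 10.33 and 9.87 in knockdown replicates. Both arrays numbered 2 were the highest, and the difference was -0.09 (-0.42 to 0.24, limma adjusted p = 0.90). Notch3 measured 8.26, 8.36 and 8.19 in control and 8.19, 8.29 and 7.99 in knockdown replicates. It was lower in each of the 3 knockdown arrays than in the control array of the same number, with differences of -0.07, -0.07 and -0.20, but the groups overlapped and the difference of -0.11 was not called (-0.34 to 0.12, limma adjusted p = 0.80 without the variance filter). Among the receptors, the lower bound of the 95% interval was lowest for Notch2, at -25.4%. It is a bound of 1 fit and no firm limit, since the Notch2 difference ran from -0.23 to -0.00018 over the 15 alternatives.

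The ligands varied too little to pass the variance filter and were read from the fit without it. Jag1 and Jag2 are Serrate-type ligands that activate receptors on neighbouring cells, and Dll3 is a divergent Delta-type ligand known to inhibit Notch within its own cell and to be expressed in neuroendocrine cells. Jag1 measured 7.53, 7.79 and 7.69 in control and 7.62, 7.57 and 7.55 in knockdown replicates 1, 2 and 3, a difference of -0.09 (95% interval -0.30 to 0.12, limma adjusted p = 0.82). Jag2 measured 10.22, 10.23 and 10.47 in control and 10.09, 10.36 and 10.28 in knockdown replicates, a difference of -0.06 (-0.31 to 0.18, limma adjusted p = 0.91). Dll3 measured 7.40, 7.27 and 7.49 in control and 7.27, 7.29 and 7.26 in knockdown replicates, a difference of -0.12 (-0.31 to 0.08, limma adjusted p = 0.73). The groups of each ligand overlapped. The lower bounds of the intervals were -18.5% for Jag1, -19.2% for Jag2 and -19.3% for Dll3. The control means of Jag1 (7.67), Dll3 (7.39) and Hes1 (7.41) lay under the median of all array values (7.89), in the range of markers of other cell types such as Cd68 (7.62). No detection call was made for these arrays, so these intervals set no firm limit on a change in the transcripts. The fibroblast marker Col1a1 (control mean 8.58) lay above the control means of Notch1 (8.30) and Notch3 (8.27). It also lay above the knockdown mean of Hey2 (8.24), so the same caution applies there. Pdgfrb, another fibroblast marker (control mean 9.58), lay above the control means of both Hey2 (8.93) and Hes6 (9.44), so the caution extends to these.

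The 5 genes whose profile over the 6 arrays was nearest to that of Hey2 were Bhlhe40, Akap6, Map3k2, Ak4 and Plekhb2. Likeness was the root mean square distance between values centred on each gene's mean, over 21788 other probe sets with a single symbol, and it was 0.082 to 0.12 on the log2 scale. Bhlhe40, a circadian transcription factor, was nearest, with 10.61, 10.39 and 10.27 in control and 9.85, 9.96 and 9.73 in knockdown replicates 1, 2 and 3. All 5 had their highest value in control replicate 1 and their lowest in knockdown replicate 3, as Hey2 did. These genes were picked for a profile that holds the group difference, so their own differences, from -0.48 for Ak4 to -0.68 for Plekhb2, are no further evidence of it.

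**Figure D3:**
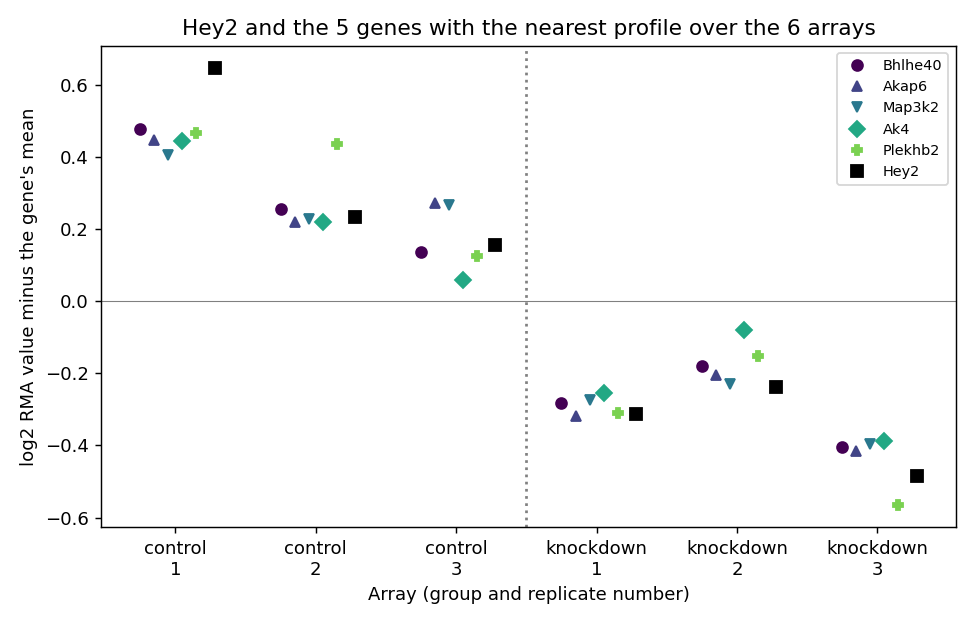
Log2 RMA values minus each gene's mean over the 6 arrays (vertical axis), by array (horizontal axis, group and replicate number), for Hey2 as black squares and the 5 genes nearest to it. The 3 control arrays lie above 0 and the 3 knockdown arrays under 0 for each gene, and control replicate 1 is the highest array of each.

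Beyond the 10 genes, 84 other genes of the pathway were listed by role, and 80 of them had a probe set of their own, 89 in all. Of these, 50 passed the variance filter and 0 were called by limma, with 10 of the 89 at an unadjusted p under 0.05, beside 10.7% of all annotated probe sets. With the replicate block 2 of the 50 were called, both lower, Rfng and Id2, a smaller share than the 7.65% of all probe sets that this fit called. The median difference of the 89 was 0.0049, and 13 of them (14.6%) had groups that did not overlap, near the 15.4% of all.

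Upstream of the receptors, Rfng had the largest difference on this list. It encodes radical fringe, a glycosyltransferase that modifies the receptors and alters their response to ligands. Rfng measured 8.90, 8.93 and 8.97 in control and 8.14, 8.55 and 8.51 in knockdown replicates 1, 2 and 3, with no overlap. The difference was -0.54 (SE 0.14, limma adjusted p = 0.11, or 0.015 and called with the replicate block). Pofut1, which adds the fucose that fringe enzymes extend, differed by -0.20 (adjusted p = 0.65). Of the other ligands, Dll1 differed by -0.29, with all knockdown arrays lower (0.42), and the ligand-like Dner by -0.37 (0.45). Of the ubiquitin ligases that drive ligand uptake, Neurl1b differed by 0.33 at one probe set (0.30) and by 0.16 at another (0.71 without the filter), and Mib2 by -0.17 (0.71). Notch4, the receptor outside the set, differed by 0.03 (0.94 without the filter).

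Among the proteases that cut the receptor, the mean was lower for 7 of 11 probe sets (median -0.10). Psen2, a catalytic subunit of gamma-secretase, differed by -0.21 (limma adjusted p = 0.59) and Ncstn, which recruits its substrates, by -0.20 (0.62 without the filter), each lower in 3 of 3 pairs. Of the genes for receptor turnover and inhibition, the mean was lower for 7 of 12 probe sets, or 5 with median centring (median -0.011). The pair with the smallest p-values were higher, Itch at 0.15 (0.63) and Fbxw7 at 0.16 at the first of its probe sets and 0.08 at the other (0.65 and 0.85), all without the filter.

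In the nucleus, 9 of 13 probe sets of the RBPJ complex and its coactivators and 10 of 13 of corepressors had a higher mean in knockdown cells. Over all annotated probe sets 12923 of 23410 did, and a difference between these shares was not tested. Medians were 0.020 and 0.035. Cdk8, a kinase that marks the Notch intracellular part for breakdown, had the largest difference, 0.36 (limma adjusted p = 0.25, or 0.028 with the replicate block at a fold of 1.28), with all knockdown arrays higher. The coactivator Maml1 differed by 0.28 (0.40). Its relative Maml2, named after its values were seen, differed the other way, by -0.29 at one probe set (0.41, lower in 3 of 3 pairs) and -0.09 at another (0.88). The corepressors Tle4, a partner of Hes proteins, and Sin3a differed by 0.26 and 0.23 (0.42 and 0.49). None of them was called.

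At the output end, the mean was lower for 5 of 6 further Hes, Hey and target genes, or 4 with median centring (median -0.06). Hes2 differed by -0.15, with all knockdown arrays lower, and Hes7 by -0.10 (limma adjusted p = 0.56 and 0.76 without the filter). The rest of this role, named after their values were seen, overlapped between the groups and were not called. Hes5 differed by -0.07, Heyl by -0.03, Nrarp by -0.05 and Hes3 by 0.03. Of the proneural and Id factors, Insm1, a zinc finger factor of neuroendocrine differentiation, differed by 0.35 (0.33, or 0.030 with the replicate block at a fold of 1.27), and Atoh1 by 0.22 (0.58). Id2, an inhibitor of proneural factors, was named after its values were seen, because the replicate block called it. It measured 9.89, 9.62 and 10.71 in control and 9.52, 9.23 and 10.33 in knockdown replicates 1, 2 and 3. The groups overlapped because both arrays numbered 3 were high, while the differences within numbers were -0.36, -0.40 and -0.38. The mean difference of -0.38 had a limma adjusted p of 0.57 without the block and 0.022 with it. At 1.302-fold it only just met the fold limit, and the shift of 0.03 by median centring would take it under.

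**Figure D4:**
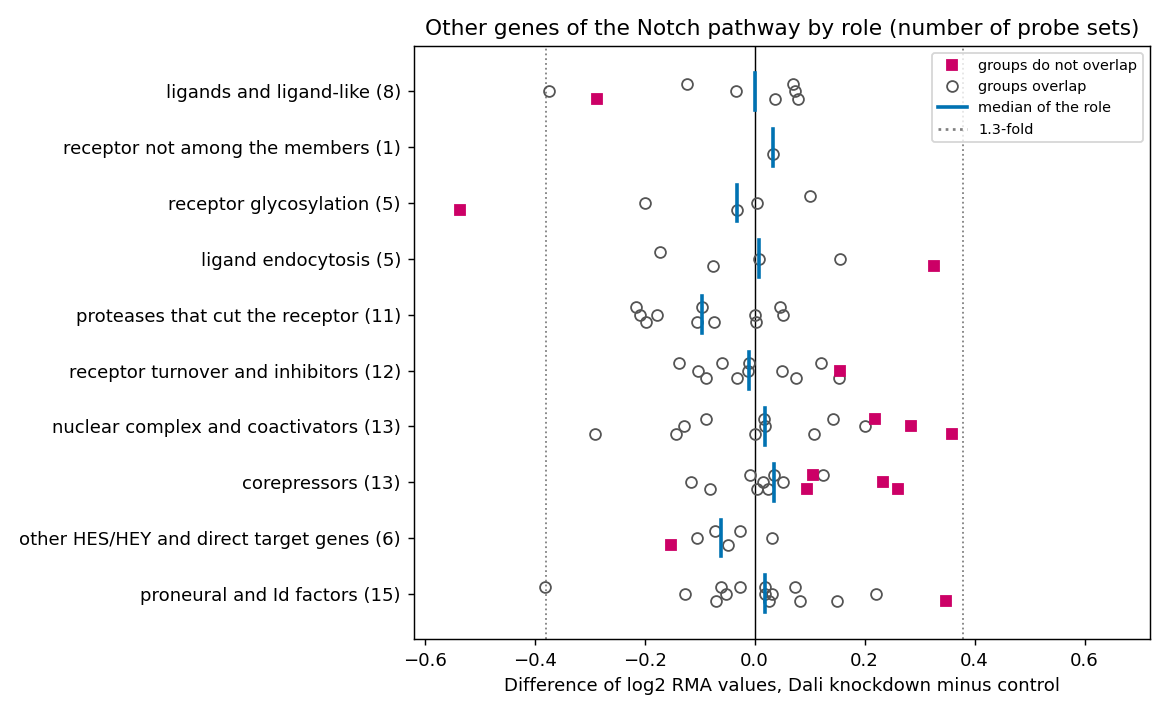
Difference of log2 RMA values, Dali knockdown minus control (horizontal axis), for 89 probe sets of other Notch pathway genes grouped by role, with the number of probe sets after each role. Filled squares are probe sets whose groups do not overlap, open circles those that overlap, and vertical bars the median of each role. The lowest value is Rfng at -0.54 and the highest Cdk8 at 0.36.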

How the data were processed

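RNA from 6 N2A samples (200 ng each) was hybridised to Affymetrix Mouse Gene 1.0 ST arrays. Deposited values are log2 expression measures from 2.76 to 14.8. The authors background corrected and summarised them by RMA and quantile normalised the arrays; tool versions are not given in the sources used here. Groups and replicate numbers came from the labels. The samples are called biological replicates, but their cultures are not described, and each p-value reflects only how far these arrays differ, which may be technical. Of 35556 rows, 21789 were annotated with 1 gene symbol, 1621 with several and 12146 were not listed and left out. Entrez numbers changed 0 symbols against GRCm38.p6.

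As in the study's methods, limma (3.58.1, R 4.3.3, lmFit and eBayes, two-sided) followed a variance filter, read here as an interquartile range above the median, which kept 11705 of 23410 annotated probe sets. Adjusted p-values are Benjamini-Hochberg values over all probe sets of the fit. Genes removed by the filter were read from the fit without it. Deviations of same-numbered arrays from their group means correlated at 0.14, 0.65 and 0.65 over probe sets, so the numbers were treated as pairs in a fit with the number as a block, which leaves 2 residual degrees of freedom in place of 4. Control replicate 1 correlated more with knockdown replicate 2 (0.20), so these values do not show a pairing of the arrays numbered 1. The fit without the block was tested on simulated data with independent noise on each array. The block fit, and variation shared by same-numbered arrays, were not simulated. The number of arrays limits the precision.

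The 10 genes and the lists were chosen with earlier results of these data known. Besides the 10, up to 2 genes per role with the smallest p were named, called genes first, and the 5 profiles nearest to the gene with the smallest p. Alternatives were the block, median centring, other filters, an intensity trend, array weights, no fold limit, leaving out each array and, added after seeing the data, the block without the variance filter.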

Additional observations from a re-analysis of the deposited data

How the results depend on the processing

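Hey2 kept its call in 10 of the 15 alternatives, among them no fold limit, which repeats the main fit for Hey2. Its direction was the same in all 15. That is no test, because the Hey2 groups do not overlap and several alternatives leave the difference unchanged. The limma adjusted p was 0.14 without the variance filter, 0.40 with rows without a gene symbol kept and 0.103 with a filter on low values in its place, at a difference of -0.69 in each, and the number of the 10 genes called was then 0. The other 9 genes were called in 0 alternatives. Leaving out each array in turn gave -0.78 to -0.54 for Hey2, -0.25 to 0.14 for Hey1, -0.12 to 0.019 for Jag2 and -0.11 to 0.048 for Hes1, with 0 to 1 of the 10 called and 4 to 508 probe sets called in all. The call of Hey2 was lost without control replicate 1 or knockdown replicate 1. Hey1 changed sign to 0.0030 with arrays centred on their medians. The cause was not tested.

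Over all probe sets, 133 were called (43 higher, 90 lower). With the replicate block 896 were called, with array weights 1148, without the variance filter 41 and with unannotated rows kept 0 by limma (1597 of 17778 at an unadjusted p under 0.05). Without control replicates 1, 2 and 3 the count was 53, 63 and 331, and without knockdown replicates 1 and 2 it was 4 and 508. With the block and no variance filter, an alternative chosen after seeing the data, 888 were called and Hey2 was 1 of them (adjusted p = 0.016). Median centring raised every difference by 0.03 and gave 57 higher and 71 lower. The replicate block changed no call among the 10 genes. With 3 arrays per group, the 95% intervals of 8 of the 10 genes include 0.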
